A study of Mus musculus with 2 samples.

Results

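The genes described here are the mouse zinc finger genes with a Zfp symbol and a number that lie outside chromosomes 2 and 7. Members were chosen by their symbol, their chromosome and their measured level, a TPM (a transcript level scaled by length and library size) of at least 1 over exons and introns, and Zfp42 and Zfp57 were left out. The rule itself uses no allelic count, but it was chosen with earlier results of these data known. The TPM is given only as a description. A record is 1 gene with 1 transcript biotype, coding or lncRNA. The rule gave 311 records of 231 genes, 227 of them coding and 84 lncRNA, out of 17956 expressed records of 13462 genes (TPM of at least 1) and 37178 records of 29833 genes in all. No member lay on chromosome X or Y. Total RNA was measured by strand-specific paired RNA-seq in F123 mouse embryonic stem cells (mESCs), a male hybrid line whose paternal genome is CAST and whose maternal genome is S129, grown without feeder cells for the last passages before harvest. There was 1 group of untreated cells with 2 replicates, and the deposited allelic counts pool both. The comparison is therefore between the CAST and the S129 allele within the same cells, and it asks which alleles of these genes were transcribed more. Because the line stems from 1 cross in 1 direction, the strain of an allele and the parent it came from cannot be told apart.

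Zinc finger proteins of this type bind DNA through tandem repeats of a short finger in which cysteine and histidine residues hold a zinc ion, joined by a conserved linker. Many of them begin with a KRAB box, which recruits the co-repressor TRIM28 and, through it, the histone methyltransferase SETDB1, and these KRAB zinc finger proteins are best known in mESCs for silencing endogenous retroviruses. KRAB zinc finger genes multiplied by tandem duplication, so that many lie in clusters of closely related copies. Others with a Zfp symbol are single genes of unrelated function, such as RNA-binding, ubiquitin ligase or spindle proteins.

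Markers put the sample where its label did. All 10 mESC markers had a TPM of at least 1 (median 149, range 12.1 to 483), against 7 of 16 fibroblast feeder markers (median 0.443, range 0.0363 to 30.8), and no listed feeder marker was at 0. All 5 primitive endoderm markers (TPM 3.81 to 21.4) and all 5 markers of 2-cell-like cells (TPM 1.36 to 8.20) were also above 1, and the part of such cells in the values below was not tested. All records of the table held 16343693 allelic reads, of which 50.4% were CAST. The 2 Zfp genes left out by the rule were both biallelic. Zfp42, a pluripotency marker, had 7927 CAST and 6208 S129 reads at a TPM of 119, and Zfp57, which protects imprints, had 10 CAST and 6 S129 reads at a TPM of 143.

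The zinc finger genes were on the whole transcribed from both alleles, and allele-specific expression (ASE) was as frequent as among all expressed records. A record was called ASE with an adjusted p of at most 0.05 (two-sided exact binomial test against equal shares, Benjamini-Hochberg adjustment over all 18632 records with allelic reads), a difference of at least 2-fold and a TPM of at least 1. Of the 290 member records with a variant, 41 were ASE (14.1%), 25 with CAST and 16 with S129 higher, and they belonged to 37 of 223 genes. Over all expressed records, 14.1% of 15935 were ASE, 8.33% with CAST and 5.78% with S129 higher. The median log2 fold change of CAST over S129 reads was -0.04 for the members and 0.01 for all other expressed records, and the median size of the difference, on the log2 scale, was 0.37 for the members and 0.36 for the others. Between 40% and 60% CAST reads were found for 200 member records (69.0%), against 67.4% of all expressed records. The share of the members is that of the background, so the count is no result about them as a group. Zfp records chosen in the same way on chromosome 2 (3 of 23 ASE) and chromosome 7 (17 of 102 ASE, 16.7%) are given beside these without a test.

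Depth set how far each record could be read. The tested members held a median of 351 allelic reads (range 8 to 14424) at a median of 14 variants, and 21 records had no variant and could not be tested. Counts are of reads at variants, a read can be counted at several of them, and the replicates are pooled, so p-values, standard errors and the 95% Clopper-Pearson intervals given below cover counting error only. Of the 41 ASE records, 35 had at least 50 reads, 28 had at least 100 reads and 5 rested on 1 or 2 variants. The difference was 2- to 3-fold in 19 ASE records and 3- to 5-fold in 15, and in 7 it was at least 5-fold or only 1 allele had reads. A further 7 records differed by 2-fold or more and did not pass the test, at 8 to 21 reads each. With a test that allows the variants of a gene to vary beyond counting error (an intra-gene correlation of 0.05), 5 member records stayed ASE, Zfp429, Zfp980, Zfp982, Zfp960 and Zfp97, all CAST, against 3.06% of all expressed records.

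**Figure D1:**
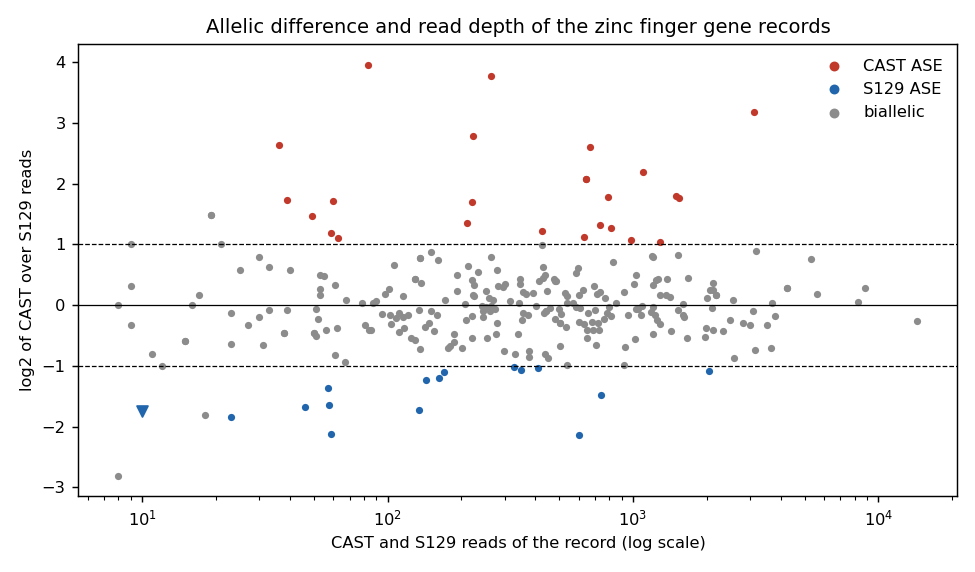
Log2 of CAST over S129 reads (y axis) against the CAST and S129 reads (x axis, log scale) of the 290 tested records, 1 point each, with CAST ASE in red, S129 ASE in blue and biallelic records in grey. Dashed lines mark 2-fold, and the biallelic records on or beyond them had 8 to 21 reads. The triangle is Zfp989, which had 0 CAST reads and is drawn with a floor of 3 reads.

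ASE was spread unevenly over the chromosomes. Chromosome 4 held 12 ASE records among 26 tested members (46.2%, against 14.1% of all tested expressed records), 7 CAST and 5 S129. Chromosome 17 held 10 of 51 (19.6%) and chromosome 13 held 7 of 42 (16.7%), and 0 ASE records were found among the members on chromosomes 1, 3, 10, 12, 14 and 19, which had 3 to 6 tested records each. The other chromosomes held 1 or 2 ASE members each. These shares are descriptions of linked genes and were not tested against each other.

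**Figure D2:**
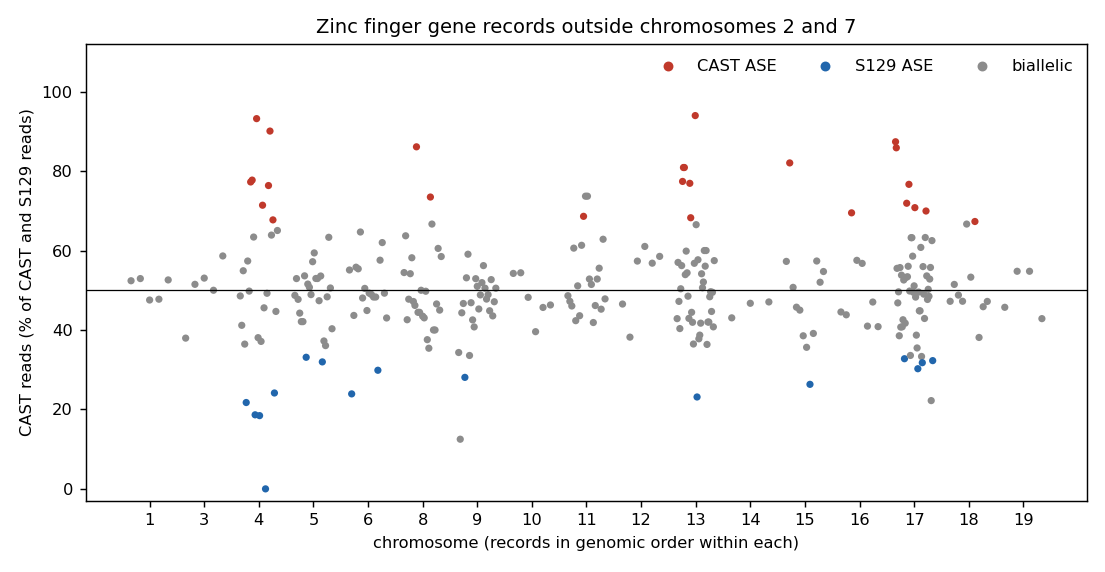
CAST reads as a percentage of CAST and S129 reads (y axis) for each tested record by chromosome (x axis, records in genomic order), with CAST ASE in red, S129 ASE in blue and biallelic records in grey. The records of chromosome 4 spread from 0% to 93.2%, and those of chromosomes 1, 14 and 19 all lie between 40% and 60%.

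The largest set of allelic differences lay at the distal end of chromosome 4. Members with starts less than 500 kb apart were joined into runs by position alone, and 1 such run of 17 genes and 21 records spanned chr4:145510777-147848366 (mm10). Each of the 17 genes encodes a zinc finger protein with the core motif of the KRAB box. Of its 16 tested records, 9 were ASE (56.25%, against 14.1% of all tested expressed records), 5 CAST and 4 S129, in 8 genes. Neighbours in the run differed in direction. The copies are alike in sequence over long stretches, as the 250 bases upstream of the RefSeq start sites (GRCm38.p6, plus strand) show for Zfp980 (chr4:145670447-145670696), Zfp987 (chr4:146097062-146097311), Zfp988 (chr4:147305354-147305603) and Zfp982 (chr4:147492167-147492416), chosen because 3 of them were CAST and Zfp987 was S129 ASE. Capitals mark the letters of a CCAAT box (here read as ATTGG on the other strand, or as CCAAT) and of a GC box (GGGCGG), which overlap by 2 bases where both are present.
Zfp980: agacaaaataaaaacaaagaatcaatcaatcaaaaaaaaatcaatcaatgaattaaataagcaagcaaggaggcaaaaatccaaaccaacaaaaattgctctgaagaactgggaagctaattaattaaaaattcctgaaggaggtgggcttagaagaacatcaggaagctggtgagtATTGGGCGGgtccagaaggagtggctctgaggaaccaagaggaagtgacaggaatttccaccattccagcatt
Zfp987: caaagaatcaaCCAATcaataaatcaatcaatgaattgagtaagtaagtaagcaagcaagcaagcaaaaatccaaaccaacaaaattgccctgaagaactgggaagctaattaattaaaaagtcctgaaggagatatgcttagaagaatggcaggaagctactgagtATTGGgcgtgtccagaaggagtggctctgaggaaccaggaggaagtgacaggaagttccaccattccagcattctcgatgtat
Zfp988: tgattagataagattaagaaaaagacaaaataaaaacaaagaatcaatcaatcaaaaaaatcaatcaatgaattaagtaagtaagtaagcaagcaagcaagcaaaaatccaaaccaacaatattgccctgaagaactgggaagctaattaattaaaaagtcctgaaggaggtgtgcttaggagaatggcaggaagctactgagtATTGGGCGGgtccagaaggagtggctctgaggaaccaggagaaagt
Zfp982: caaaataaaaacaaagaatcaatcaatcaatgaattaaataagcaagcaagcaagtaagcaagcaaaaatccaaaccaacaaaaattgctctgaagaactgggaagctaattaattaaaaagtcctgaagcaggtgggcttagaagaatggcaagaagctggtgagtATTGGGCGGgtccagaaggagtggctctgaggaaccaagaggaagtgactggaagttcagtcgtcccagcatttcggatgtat

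The 4 windows were 79.2% to 87.2% identical in pairs by global alignment. ATTGG stood in all 4 of them. GGGCGG overlapping its end stood in Zfp980, Zfp988 and Zfp982 and in no position of the Zfp987 window. The windows are reference sequence and were not compared between the strains. Their genes were picked by allelic class with 1 S129 ASE gene among them, and windows of other genes of the run are not given. A relation of the GC box to allelic direction was not tested. The windows hold 1 to 3 CG dinucleotides each. The RefSeq starts lay 0 to 70 bases from the starts of the deposited transcripts.

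The strongest CAST expression of the run was that of Zfp980 and Zfp982. Zfp980 (chr4:145670685-145704441) had 247 CAST and 18 S129 reads at 3 variants, all intronic, or 93.2% CAST (95% interval 89.5% to 95.9%), a log2 fold change of 3.78 (SE 0.35, exact binomial adjusted p = 3.97e-51) at a TPM of 20.2. Zfp982 (chr4:147492417-147513486), a regulator of pluripotency genes in mESCs, had 2796 CAST and 308 S129 reads at 39 variants, or 90.1% CAST (89.0% to 91.1%), a log2 fold change of 3.18 (SE 0.09) at a TPM of 17.7, and its adjusted p was too small for the arithmetic to hold. Both genes stayed CAST ASE with either intra-gene correlation and with either alternative null share. Zfp988 (chr4:147305674-147333734) had 168 CAST and 52 S129 reads, or 76.4% CAST, at 3 variants. Zfp992 (chr4:146449023-146470292) had 522 CAST and 209 S129 reads, or 71.4% CAST, at 29 variants, and the coding record of Zfp979 (chr4:147611937-147642513) had 667 CAST and 318 S129 reads, or 67.7% CAST, at a TPM of 39.9.

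S129 expression prevailed in interspersed genes. Zfp987 (chr4:146097345-146126621) had 111 CAST and 491 S129 reads at 20 variants, or 18.4% CAST (15.4% to 21.8%), a log2 fold change of -2.15 (SE 0.15, exact binomial adjusted p = 2.07e-56). Its TPM was 7.88 over exons and introns and 0.741 over exons. Zfp990 (chr4:145510791-145534919), first in the run, had 11 CAST and 48 S129 reads at 2 variants, or 18.6% CAST, and an adjusted p of 5.6e-06. Zfp989 (chr4:146971976-146990755) was the only ASE member with reads of 1 allele (1.21% of all expressed records were). It had 0 CAST and 10 S129 reads at 1 intronic variant, a share of 0% CAST with an interval up to 30.8% (exact binomial adjusted p = 0.00537). With a floor of 3 reads over the pooled replicates in place of 0, its S129 level was 3.33-fold higher. That fold is a convention and no statistical bound, since the interval also allows smaller differences. The lncRNA record of Zfp979 had 14 CAST and 44 S129 reads at 2 variants.

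The remaining 7 tested records of the run were biallelic by the thresholds, with shares that differed from gene to gene. Zfp981 held the most allelic reads of all members, 6574 CAST and 7850 S129 at 251 variants, or 45.6% CAST (44.8% to 46.4%). Its span overlaps the lncRNA gene 1700095A21Rik, which had 6511 CAST and 7627 S129 reads at 235 variants. The reads of Zfp981 and this lncRNA gene therefore cannot be told apart. Zfp984 had 2060 CAST and 1107 S129 reads and Zfp985 had 973 CAST and 550 S129 reads, or 65.0% and 63.9% CAST. Zfp600 had 111 CAST and 188 S129 reads and Zfp986 had 67 CAST and 109 S129 reads, or 37.1% and 38.1% CAST. Zfp534 (44.7%) and Zfp991 (49.2%) were closest to equal shares beside Zfp981. Zfp978 and Zfp933, with the lncRNA records of Zfp990, Zfp987 and Zfp989, had no variant.

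Likeness between copies bears on how these reads can be placed, and it was measured as the share of 75-base windows (the read length) of a gene's spliced transcripts that also occur, letter for letter, in the transcripts of a gene at another place in the reference. The median of this share was 53.0% over the records of the run, with 81.7% for Zfp987, 77.4% for Zfp986, 75.9% for Zfp991, 56.1% for both Zfp980 and Zfp988, and 54.8% for Zfp989. The share was low for Zfp982 (4.93%), Zfp985 (4.36%) and Zfp933 (0.0703%), and Zfp990 had 11.6%. The stretch below, of 75 coding bases, is shared by Zfp987, S129 ASE, and Zfp988, CAST ASE, and 56.6% of the 1825 coding windows of Zfp987 were found in Zfp988. Capitals mark the codons of the linker between fingers, a conserved part of these proteins.
Zfp987, chr4:146124744-146124818: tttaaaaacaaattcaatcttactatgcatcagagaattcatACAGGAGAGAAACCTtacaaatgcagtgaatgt
Zfp988, chr4:147331855-147331929: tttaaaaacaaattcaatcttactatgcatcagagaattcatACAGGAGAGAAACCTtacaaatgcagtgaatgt

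A read that lies within such a stretch cannot be placed by its own letters. The study's methods restrict variants to positions of high mappability, and most variants of the run were intronic (Zfp987 had 1 exonic of 20), so most of the counted positions lie outside the sequences compared here, and introns were not compared. What part alignment between copies has in the allelic shares was not tested.

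**Figure D3:**
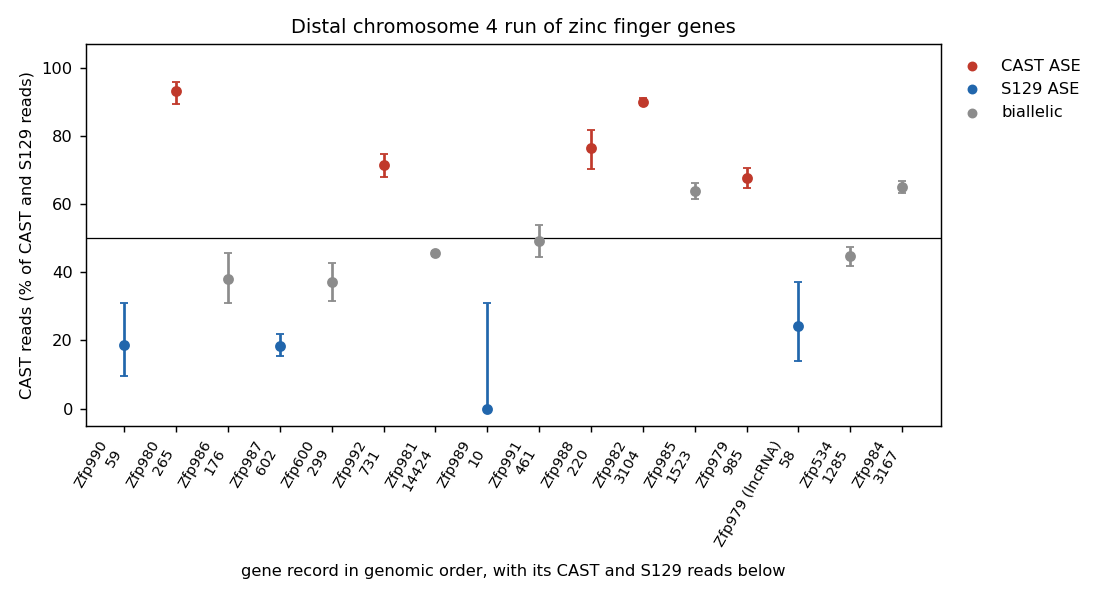
CAST reads as a percentage of CAST and S129 reads (y axis) for the 16 tested records of the distal chromosome 4 run in genomic order (x axis, with the reads of each record), with 95% Clopper-Pearson intervals as bars. CAST ASE records (red, 67.7% to 93.2%) and S129 ASE records (blue, 0% to 24.1%) are interspersed along the run.

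A pair of neighbours on chromosome 17, Zfp960 and Zfp97, were both CAST ASE. Zfp960 (chr17:17064113-17089628) had 194 CAST and 28 S129 reads at 7 variants, or 87.4% CAST (82.3% to 91.5%), a log2 fold change of 2.79 (SE 0.29, exact binomial adjusted p = 1.72e-30). Zfp97 (chr17:17121415-17146831) had 571 CAST and 94 S129 reads at 4 variants, or 85.9% CAST (83.0% to 88.4%), a log2 fold change of 2.60 (SE 0.16, exact binomial adjusted p = 1.79e-82). Their levels were low, with a TPM of 4.41 for Zfp960 and 3.46 for Zfp97. The copies are alike in their transcripts, and 75.3% of the windows of Zfp960 and 74.0% of those of Zfp97 recur elsewhere, so their counts cannot be taken as independent. Of the 1564 coding windows of Zfp97, 70.6% were found in Zfp960, such as this stretch with the linker codons in capitals.
Zfp97, chr17:17144460-17144534: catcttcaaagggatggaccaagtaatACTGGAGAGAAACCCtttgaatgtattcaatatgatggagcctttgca
Zfp960, chr17:17087245-17087319: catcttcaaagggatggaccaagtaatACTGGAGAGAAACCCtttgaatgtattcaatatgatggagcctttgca

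Chromosome 13 held 2 runs with ASE members. In the run of Zfp808, Zfp935 and Zfp934 (chr13:62129916-62558612), Zfp934 had 521 CAST reads of 644, or 80.9% CAST (77.6% to 83.9%), in both its coding and its lncRNA record, which carried identical counts at 29 variants. Zfp935 had 613 CAST and 179 S129 reads, or 77.4% CAST, at 35 variants, and its record spans that of Zfp934 on the same strand, so the reads of the genes cannot be told apart. The TPM of Zfp935 was 4.37 over exons and introns and 0.434 over exons. The larger run of 23 genes (chr13:67038596-67826999) held 4 ASE records among 27 tested (14.8%, near the 14.1% of all tested expressed records). Zfp429 (chr13:67387905-67399743) had the largest fold change of all members with reads of both alleles, 78 CAST against 5 S129 reads at 5 variants, or 94.0% CAST (86.5% to 98%), a log2 fold change of 3.96 (SE 0.67, exact binomial adjusted p = 6.65e-17). Its TPM was 2.15, and it overlaps the lncRNA gene Gm48900, which was 64.9% CAST. Zfp759 was CAST ASE in its coding record (43 CAST and 20 S129 reads) and likewise in the lncRNA one (30 CAST and 9 S129 reads). Zfp874a, a few genes from Zfp429, was S129 ASE with 31 CAST and 103 S129 reads at 7 variants (log2 fold change -1.73, SE 0.30, exact binomial adjusted p = 2.02e-09). The other 23 tested records were biallelic, and 50.0% of the variants of this run had the non-reference base on S129, against 11.1% of all variants.

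The larger of the remaining runs on chromosome 17 held ASE records of both directions. Their shares were 12.5% and 16.7% of the tested records, near the 14.1% of all tested expressed records. The run of Zfp119a, Zfp959 and Zfp119b held 0 among its 3 tested records. Among 24 tested records at chr17:21009044-23599487, Zfp943 (151 CAST and 59 S129 reads) and Zfp758 (46 CAST and 14 S129 reads) were CAST ASE, and the coding record of Zfp995 was S129 ASE with 135 CAST and 277 S129 reads. Among 18 tested records at chr17:32773252-33630004, the lncRNA record of Zfp955b was CAST ASE (298 CAST and 128 S129 reads at a TPM of 52.0), and Zfp811 (49 CAST and 113 S129 reads) and the coding record of Zfp952 (54 CAST and 116 S129 reads) were S129 ASE. The calls were also set against the median CAST share of neighbouring genes that are not members, in place of equal shares. Zfp811, Zfp952 and the coding record of Zfp995 then fell short of 2-fold (log2 differences of -0.94, -0.52 and -0.37). Zfp943, Zfp758 and the lncRNA record of Zfp955b kept their CAST calls.

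Members outside such runs included genes that do not belong to the KRAB family. Zfp706 (chr15:37000814-37007773), a small protein that represses Klf4 and helps mESCs to leave self-renewal, was the clearest of them, with 901 CAST and 197 S129 reads at 12 variants, or 82.1% CAST (79.7% to 84.3%), a log2 fold change of 2.19 (SE 0.11, exact binomial adjusted p = 4.16e-106) at a TPM of 43.1. Zfp593 (chr4:134243289-134245592), whose relative in yeast acts in ribosome assembly, had 1186 CAST and 349 S129 reads in its coding record, or 77.3% CAST (75.1% to 79.3%), at 17 exonic variants and a TPM of 50.6. The lncRNA record of the same gene gave 1159 CAST and 332 S129 reads. E130218I03Rik, on the other strand over the same place, was 65.1% CAST with 590 CAST and 316 S129 reads. Whether the allelic counting used strand is not given in the sources used here, so the reads of overlapping genes cannot be told apart.

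Zfp598, an E3 ubiquitin ligase that senses collided ribosomes, was CAST ASE with 577 CAST and 238 S129 reads, or 70.8% CAST (67.5% to 73.9%), at 15 variants and a TPM of 21.2. Zfp692 was CAST ASE with 435 CAST and 199 S129 reads at a TPM of 12.9, and Zfp236, a protein with 30 fingers, with 871 CAST and 423 S129 reads at 50 variants. Fewer reads carried the CAST calls of Zfp709 (31 CAST and 5 S129), Zfp791 (36 CAST and 13 S129) and Zfp174 (41 CAST and 18 S129), whose intervals reached down to 70.5%, 58.9% and 56.1%.

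On the S129 side, Zfp7 (chr15:76879335-76889545) had 195 CAST and 546 S129 reads at 48 variants, or 26.3% CAST (23.2% to 29.6%), a log2 fold change of -1.49 (SE 0.12, exact binomial adjusted p = 5.97e-38). Gm49527 overlaps it on the same strand with 621 CAST and 1221 S129 reads in its coding record. Zfp157 (chr5:138441468-138460694) had 654 CAST and 1392 S129 reads at 72 variants, or 32.0% CAST (29.9% to 34%), the most reads of any S129 ASE member, and its log2 difference was -0.55 when set against neighbouring genes, short of 2-fold. Zfp36l2, which binds AU-rich mRNAs and promotes their decay, had 113 CAST and 237 S129 reads, or 32.3% CAST (27.4% to 37.5%), at 6 exonic variants and a TPM of 15.3, and the overlapping lncRNA gene Gm36279 on the other strand had 251 CAST and 546 S129 reads. Zfp637 had 43 CAST and 101 S129 reads, Zfp786 had 11 CAST and 35 S129 reads, and the lncRNA records of Zfp560 and Zfp618 had 16 CAST and 41 S129 reads and 5 CAST and 18 S129 reads. The coding records of Zfp560 and Zfp618 had a TPM under 1 and were no members.

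Members with a well-known role in mESCs or chromatin had a share of ASE records near that of all expressed records. Of 30 such genes listed, 20 were members, and 3 of their 26 tested records were ASE (11.5%, against 14.1% of all tested expressed records), Zfp706, Zfp36l2 and the lncRNA record of Zfp326, with a median log2 fold change of -0.07. Zfp809, a KRAB protein that silences murine leukaemia virus by its primer binding site, had 4193 CAST and 4029 S129 reads at 100 variants in its coding record, or 51.0% CAST (49.9% to 52.1%). Zfp462, which guards heterochromatin, had 4829 CAST and 3965 S129 reads, or 54.9% CAST (53.9% to 56.0%), a log2 fold change of 0.28 that passed the test (exact binomial adjusted p = 3.8e-19) and lay under 2-fold. Zfp638, which silences unintegrated retroviral DNA, had 1032 CAST and 1062 S129 reads, and Zfp292 had 339 CAST and 359 S129 reads. Zfp445, which acts with Zfp57 at imprints, had 57 CAST and 64 S129 reads, or 47.1% CAST (38.0% to 56.4%). Zfp932, which binds retroviral sequences, had 134 CAST and 140 S129 reads, and 26.4% of its windows recur elsewhere. Zfp148, a zinc finger activator and repressor, had 808 CAST and 1164 S129 reads, or 41.0% CAST (38.8% to 43.2%), and Zfp131 had 793 CAST and 587 S129 reads, or 57.5% CAST.

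The members of highest TPM, which the rule used, were Zfp281 (TPM 106), a partner of the pluripotency factors, Zfp207 (91.3), a spindle assembly and splicing protein, Zfp830 (67.5), Zfp36l1 (56.8), the lncRNA record of Zfp740 (56.5) and Zfp593. Zfp281 had 283 CAST and 255 S129 reads and Zfp830 had 309 CAST and 374 S129 reads. Zfp36l1, a relative of Zfp36l2, had 356 CAST and 576 S129 reads, or 38.2% CAST (35.1% to 41.4%, exact binomial adjusted p = 4.47e-12), on the S129 side and under 2-fold. Zfp207, in spite of its level, had 5 CAST and 4 S129 reads at 1 variant, too few to show a difference. At the other end, Zfp316 (TPM 1.01, 44 CAST and 43 S129 reads) and Zfp458 (TPM 1.07, 36 CAST and 45 S129 reads) lay just inside the rule, and Zfp9 (TPM 0.992, 31 CAST and 15 S129 reads) and Zfp423 (TPM 0.967, 498 CAST and 565 S129 reads) just outside it.

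The machinery that KRAB zinc finger proteins recruit was close to balanced. Of 29 listed symbols of co-repressors, histone modifiers and silencing factors, 27 were in the table with 39 expressed records, and 2 of 38 tested records were ASE (5.26%, against 14.1% of all expressed records), both with CAST higher. Among them was the lncRNA record of Pphln1, a part of the HUSH silencing complex, with 111 CAST and 55 S129 reads. The coding record of Pphln1 was biallelic, with 522 CAST and 469 S129 reads. The median log2 fold change of the list was -0.01, and 86.8% of its tested records lay between 40% and 60% CAST. Its tested records were deeper, with a median of 2051.5 allelic reads and 31 variants. Expressed records that are not members had medians of 398 reads and 13 variants. The part of depth in the lower share of ASE records was not tested. Trim28 had 6875 CAST and 7290 S129 reads at a TPM of 431, and Setdb1 had 1092 CAST and 1080 S129 reads at a TPM of 22.2. With an intra-gene correlation of 0.01, 0 records of the list were ASE, against 12.1% of all expressed records. By the binomial test alone, without the 2-fold minimum, 18 of the 38 tested records had an adjusted p of at most 0.05.

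For 80 member genes both a coding and an lncRNA record were expressed. In 67 of them both could be tested, and in 65 the spans of the records overlap, so most pairs share reads and are no independent measurements. Both records had the same class in 61 genes, and 8 pairs had identical counts. The 6 genes whose records differed were Zfp326, Zfp709, Zfp952, Zfp955b, Zfp979 and Zfp995. Zfp979 was the only gene with opposite calls, 667 CAST and 318 S129 reads in the coding record against 14 CAST and 44 S129 reads in the lncRNA record, which covers the 5′ end of the gene (chr4:147639395-147642508). Zfp326, named in human cells as a link between splicing and elongation, had 495 CAST and 428 S129 reads at 52 variants in its coding record and 108 CAST and 218 S129 reads, or 33.1% CAST (28.0% to 38.5%), at 23 variants in its lncRNA record. Zfp955b had 760 CAST and 441 S129 reads in its coding record, the same direction as its ASE lncRNA record and under 2-fold. For Zfp709, Zfp952 and Zfp995 the biallelic lncRNA records held 4 CAST and 5 S129, 4 CAST and 8 S129, and 78 CAST and 109 S129 reads. The lncRNA members as a whole were ASE in 8 of 71 tested records (11.3%, against 16.6% of all lncRNA records) and the coding members in 33 of 219 (15.1%, against 12.7%).

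**Figure D4:**
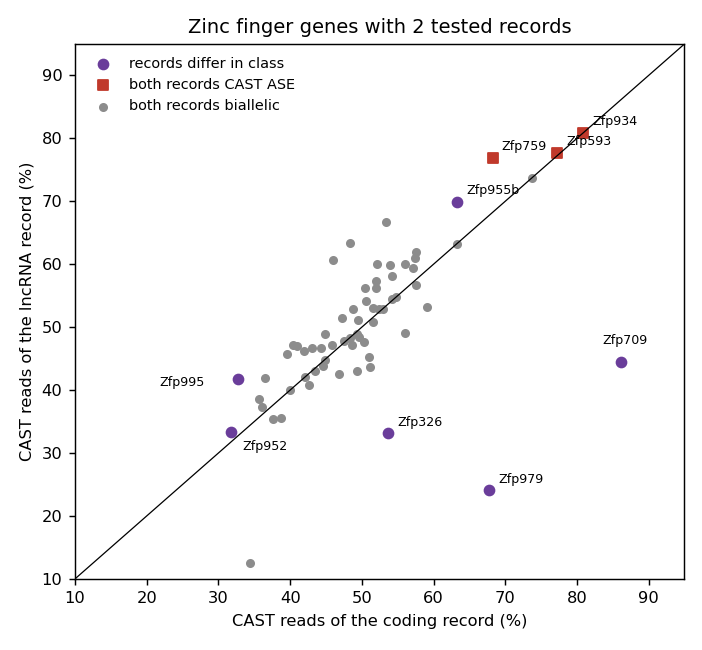
CAST reads in percent of the coding record (x axis) and of the lncRNA record (y axis) of the 67 genes with 2 tested records. Purple points are the 6 genes whose records differ in class, red squares the 3 genes with both records CAST ASE, grey points genes biallelic in both, and Zfp979 lies farthest from the line of equal shares at 67.7% and 24.1%.

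Some features that the rule did not use differed between ASE and other members. The core of the KRAB box (Leu-Tyr, any 2 residues, Val-Met) was found in the translated coding sequence of 125 of 229 genes. Only this exact pattern was searched, so genes without a match can still encode a KRAB box. It was present in 26 of 37 ASE genes (70.3%) and 94 of 184 tested genes that were not ASE (51.1%). By record, 29 of 151 tested members with a KRAB core were ASE (19.2%) and 12 of 137 without (8.76%), against 14.1% of all expressed records. Without the distal chromosome 4 run it was 20 of 135 with the core (14.8%) and 12 of 137 without (an alternative chosen after seeing the data). The number of fingers was alike, with a median of 11 in ASE genes and 10 in the others (range 0 to 36).

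KRAB zinc finger genes are also known for clustering, and most members of large runs carried the core. In runs of at least 5 genes 21 of 105 tested records were ASE (20%), in runs of 2 to 4 genes 12 of 74 (16.2%), and of members with no other member within 500 kb 8 of 111 (7.21%), against 14.1% of all tested expressed records. Without the distal chromosome 4 run the large runs held 12 ASE records among 89 tested (13.5%), a share near that of all expressed records (alternative chosen after seeing the data). All 21 ASE records of the large runs carried the KRAB core, among 93 tested records that did, and 0 of 11 tested records without it were ASE. Outside the large runs 8 of 58 tested records with the core (13.8%) and 12 of 126 without it (9.52%) were ASE.

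The share of ASE records was higher among members that share more sequence with genes at other places. Of tested records with at least 20% shared windows, 10 of 20 were ASE (50.0%, 7 CAST and 3 S129), against 14.1% of all tested expressed records. With some shared windows but under 20% it was 16 of 113 (14.2%, near the share of all tested expressed records), and with none 15 of 157 (9.55%). The same split over all expressed records was not made. By gene, 9 of 37 ASE genes (24.3%) and 9 of 186 other tested genes (4.84%) had at least 20%. Without the 20 highly shared records, 31 of 270 tested members were ASE, and without the chromosome 4 run 32 of 274 (11.7%). Both alternatives were chosen after seeing the data. Of the records with at least 20% shared windows, 7 lie outside that run, and 3 of these were ASE. Position, KRAB core and sharing overlap among the members, and the part of each in the allelic differences was not tested.

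**Figure D5:**
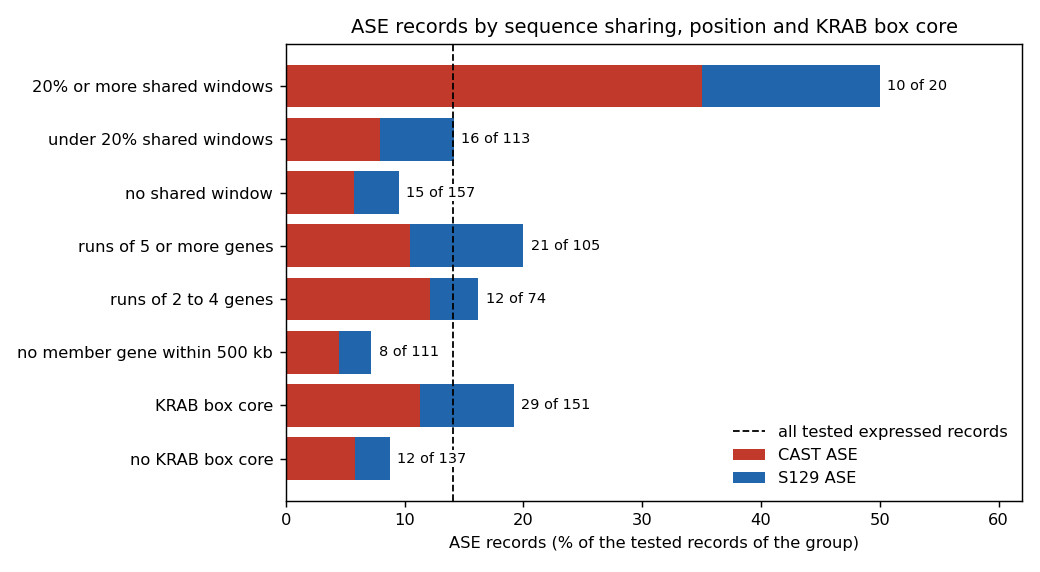
Share of tested records that were ASE (x axis, %) for the member groups named at the left, with CAST ASE in red and S129 ASE in blue and the counts beside each bar. The dashed line is 14.1%, the share of all tested expressed records, and the groups run from 50.0% with at least 20% shared windows to 7.21% with no other member within 500 kb.

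The variants of the members also differed from those of other records. The non-reference base lay on the S129 allele at 16.7% of the variants in member records and 11.0% of those in all other expressed records. Of the 75 tested members with over 30% of such variants 17 were ASE (22.7%, 11 CAST and 6 S129). Of the 150 with none also 17 were ASE (11.3%, 7 CAST and 10 S129), against 14.1% of all tested expressed records. The same split over all expressed records is not given. The part of the reference sequence in these shares was not tested.

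Levels over exons and over exons and introns differed in many members. The ratio of TPM over exons to TPM over exons and introns, which compares 2 separately scaled values and is not a share of reads, had a median of 0.76 in members and 0.91 in all other expressed records. It was under 0.5 in 73 member records, and 41 members with a TPM of at least 1 by the rule had less than 1 over exons, 9 of them ASE, among these Zfp987, Zfp935, Zfp429 and Zfp943. A TPM of at least 10 was reached by 89 member records, and 140 had less than 5.

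RefSeq start sites were matched for 184 of the 231 member genes, with 231 promoter windows of 250 bases upstream of the start. A GC box (GGGCGG, either strand) was found in 44.2% of these windows, against 32.7% of all 32851 windows, and a CCAAT box (CCAAT, either strand) in 48.5%, against 33.8%. The TATA box letters TATAAA were found in 8.23%, against 12.4%, and the YY1 core AANATGG in 11.7%, against 12.4%. The median number of CG dinucleotides was 11 in member windows and 6 in all windows. The 32851 windows were not limited to expressed genes, whereas members had a TPM of at least 1, and a gene with several starts counts once per start. The part of expression in these differences was not tested. The matches describe the letters of the reference and do not show binding.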

How the data were processed

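The authors aligned paired 75-base reads of total RNA to mm10 (GRCm38.p6) with STAR 2.7.2c, removed duplicates with Picard, and counted allelic reads with GATK at variants of high mappability. The deposited counts are reads of the CAST and S129 alleles, summed over the variants of a record and both replicates. The study asked for 20 reads at a variant, but some records hold fewer in all. For TPM, the authors scaled HTSeq counts over exons and introns, or over exons, by length and library size, and kept 1 transcript per gene and biotype. The deposited numbers of variants follow the authors' calls in the parental strains (at least 5 reads, quality of at least 30). Columns with the authors' fold changes, p-values and classes were not used.

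Records were tested with two-sided exact binomial tests and Benjamini-Hochberg adjustment over 18632 records (Python 3.11.15, scipy 1.17.1, numpy 2.4.6, pandas 2.3.3), tested on simulated data. Log2 fold changes are CAST over S129 with standard errors from the counts. Alternatives were read and variant minima, TPM minima, null shares, beta-binomial tests with intra-gene correlations of 0.01 and 0.05, fold and p thresholds and subsets of records. Shared windows and fingers (Cys-His pattern) came from GENCODE M21 transcripts of the same build, with coding sequences translated because RefSeq proteins were not used here. Promoters came from RefSeq (GRCm38.p6). All records of a gene carry the same sequence features. Named genes were, per allele, the 10 ASE records of largest fold with at least 50 reads, ASE records with 1 allele, the 6 genes of highest TPM, genes with discordant records, listed genes of known role, members of runs with at least 2 ASE genes, the 4 records with the most reads, those next to the TPM minimum, and ASE genes of the co-repressor list with Trim28 and Setdb1. The values of 1 gene of that list are not reported here. Other ASE members were named after their values were seen. Members, lists and rules were chosen with earlier results of these data known. Since replicates are pooled, no spread between them was computed.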

Additional observations from a re-analysis of the deposited data

How the results depend on the processing

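The 41 ASE members of 290 tested (14.1% of all expressed records) became 22 of 159 with a TPM of at least 5 (11.7%), 22 of 290 at 3-fold (7.56%), 76 of 290 at 1.5-fold (25.7%) and 5 of 290 with an intra-gene correlation of 0.05 (3.06%), each with the share over all expressed records in parentheses. Under the other alternatives the count was 28 of 226 (at least 100 reads, 11.9%) to 50 of 290 (null share from neighbouring genes, 14.2%). Of the 41 calls, 9 were lost against neighbouring genes, and 18 of the 50 were new. The 2 ASE records of the co-repressor list became 1 with at least 100 reads, 1 with the null share of all allelic reads, and 0 with an intra-gene correlation of 0.01 or 0.05. Against neighbouring genes that list had 1 CAST and 1 S129 call, and 0 of the original 2 calls were kept. The median log2 fold change stayed between -0.04 and -0.02. Of the 41 ASE records, 36 lost their call with a correlation of 0.05 and 5 with 0.01. The latter were the lncRNA records of Zfp560 and Zfp618 and the coding records of Zfp759, Zfp174 and Zfp791. The 9 lost against neighbouring genes were the coding records of Zfp811, Zfp952, Zfp157, Zfp759, Zfp995, Zfp598, Zfp36l2, Zfp979 and Zfp791, with log2 differences of -0.94 to 0.98. The lncRNA records of Zfp759 and Zfp979 kept their calls (1.28 and -2.17). In no ASE record of a member did the direction change under the alternative null shares. The causes were not tested. Without members of at least 20% shared windows, 31 of 270 tested members were ASE. Without the chromosome 4 run it was 32 of 274, a lower share (11.7%) than the 14.1% of all expressed records. With a TPM over exons of at least 1 it was 32 of 252. These 3 alternatives were chosen after seeing the data, and the share over all expressed records with the same limits is not given. No paired analysis was possible because both replicates of the 1 group are pooled in 1 column per allele, and no replicate could be left out. Depth limits records of few reads, since 10 reads of 1 allele still allow a share of up to 30.8% of the other.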

Other observations

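Genes that are not members also lie within the distal chromosome 4 run. Of 9 such expressed records 7 had a variant and were tested, and 2 were ASE (28.6%, against 14.1% of all tested expressed records). Gm13212, a coding gene between Zfp990 and Zfp980, had 13 CAST and 51 S129 reads, a log2 fold change of -1.97 (SE 0.45), and the lncRNA gene Gm13165, which overlaps Zfp600, had 30 CAST and 9 S129 reads. Gm20707, which overlaps Zfp984, had 1311 CAST and 712 S129 reads, and Gm21411 had 230 CAST and 388 S129 reads. Rex2 was closest to equal shares with 122 CAST reads of 245.

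Below the TPM minimum, 21 Zfp records outside chromosomes 2 and 7 held allelic reads, and 5 of them passed the fold and p thresholds, all with S129 higher. They were Zfp993 (30 CAST and 104 S129 reads), Zfp362 (20 CAST and 61 S129), the lncRNA record of Zfp423 (26 CAST and 68 S129), Zfp54 (7 CAST and 21 S129) and the coding record of Zfp618 (18 CAST and 37 S129). Zfp993 had a TPM of 0.622. The set was chosen after its values were seen, and no test of its direction was made. The matching share over all records under the TPM minimum is not given, so the count is no result about these genes.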
